A study of Mus musculus with 14 samples.

Results

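Paneth cells are secretory cells at the base of small intestinal crypts. They release lysozyme, alpha-defensins and other antimicrobial proteins into the crypt lumen and supply growth signals to the neighbouring stem cells. Wnt signalling and the transcription factor Sox9 are needed to form them, and their number rises along the small intestine towards the ileum. The genes described here are 7 genes that are widely used as markers of Paneth cells or of their granules: Lyz1, Mmp7, Ang4, Itln1, Pla2g2a, Defa17 and Defa24. They were chosen by name, and every probe set annotated to 1 of these symbols alone was used. Of the 7, 6 had such a probe set, out of 22180 genes measured in all, and all 6 passed the filter on dim genes, out of 18010 genes tested. The symbol of Defa17 occurs only on 4 probe sets that also carry the symbols of other alpha-defensins, so Defa17 was not measured here.

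The data are 14 arrays of whole jejunal tissue, 1 mouse each. In 7 mice LRH-1, the nuclear receptor encoded by Nr5a2, was wild-type (WT), and the other 7 carried LRH-1 K289R, in which arginine replaces a lysine that can be conjugated to the small modifier SUMO. Both groups were fed ad libitum until they were killed at 7 am. Their age was 19 to 21 weeks, and they were housed 5 mice to a cage. The labels give neither strain nor sex, nor how the K289R line was made, and they call the arrays biological replicates. The series title also names liver, but the sample labels say jejunum, and the arrays are treated as jejunum here. The mean log2 intensity of 12 enterocyte marker genes lay between 12.95 and 13.29 on all arrays. All 12 of 12 passed the filter on dim genes, as did 18010 of all 22180 genes. Liver marker genes were not examined. The ileal gene Fabp6, a bile acid-binding protein, reached at least 9.18 in 4 mice (replicates 1 and 6 of WT, 2 and 7 of K289R) and at most 6.63 in the other 10. Values are log2 intensities, and a difference is K289R minus WT. They come from bulk tissue, in which fewer Paneth cells and less RNA per Paneth cell cannot be told apart.

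None of the 6 measured Paneth cell genes differed between the genotypes beyond the spread between mice. With limma and Benjamini-Hochberg adjustment over all genes tested, 0 of 6 passed an adjusted p of 0.05, where 0.0444% of all genes did (8 of 18010). At an unadjusted p under 0.05 the count was also 0 of 6, against 8.48% of all genes, and the arrays of the genotypes overlapped in 6 of 6, where 0.167% of all genes showed no overlap. Of the 6 genes, 4 were higher and 2 lower in K289R, with a median difference of 0.057 against −0.0039 over all genes tested. The smallest adjusted p among them was 0.746, for Pla2g2a. What the genes did show was a variation between mice that they shared, wide for Pla2g2a, Mmp7 and Itln1 and very narrow for Lyz1 and Defa24.

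**Figure D1:**
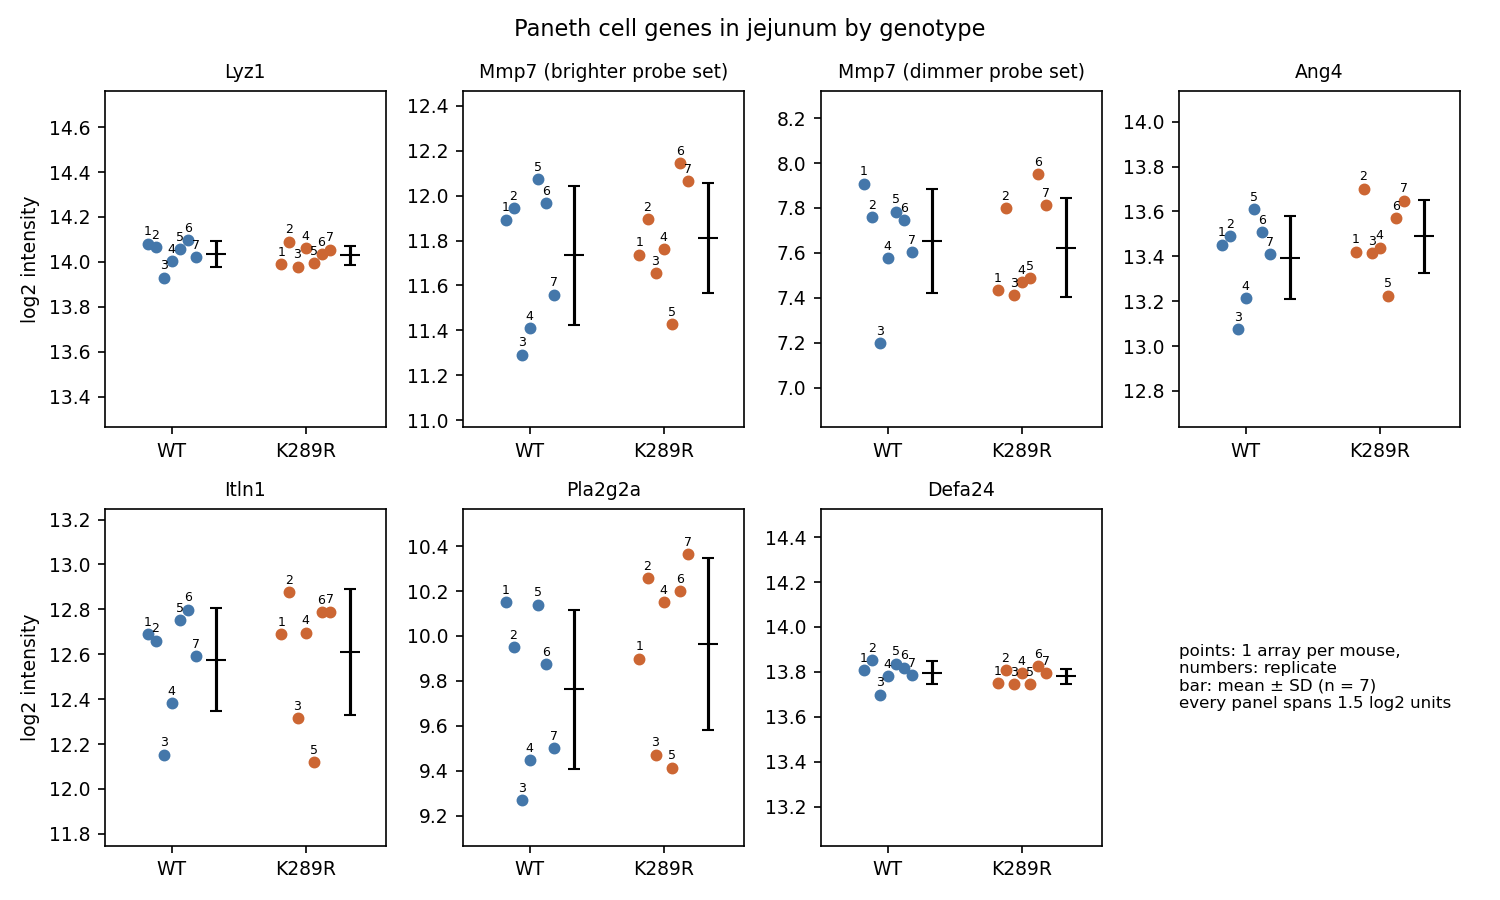
Log2 intensity (vertical axis) of each single-symbol probe set of the Paneth cell genes on the 7 WT (blue) and 7 K289R (orange) arrays, 1 point per mouse with its replicate number, and the mean ± SD beside each group. Every panel spans the same height: Pla2g2a and Mmp7 are widely scattered and Lyz1 and Defa24 tightly packed, and WT replicate 3 is the lowest WT point in each panel.

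Lyz1 encodes the lysozyme of Paneth cell granules, which cleaves bacterial cell walls. In WT its level ran from 13.93 through a median of 14.06 to 14.10, and in K289R from 13.98 through 14.03 to 14.09. The K289R arrays thus lay wholly within the WT range. The means were 14.04 ± 0.057 (SD, n = 7) and 14.03 ± 0.042 (SD, n = 7), a difference of −0.0075 (SE 0.042), which is a fold of 0.995 with a 95% interval of 0.936 to 1.06 (limma adjusted p = 0.970). The exact permutation test, 2-sided over all splits of 7 against 7 arrays, gave p = 0.786. The sign of so small a difference depended on single arrays, with 0.0027 without WT replicate 6 and 0.00092 without K289R replicate 3. The highest Lyz1 value was only 0.19 below the highest value in the whole table (14.29), and how far such bright probe sets can still rise was not tested.

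The second mouse lysozyme gene, Lyz2, is the one of macrophages and other myeloid cells, and its promoter is similar to that of Lyz1. The stretches before both transcription starts are shown. That of Lyz1 carries the only match to the site of the series' own receptor among the promoter windows of the Paneth cell genes. That of Lyz2 is similar but lacks the match. The 250 bases before each start, from RefSeq on GRCm38.p6, are given 5′ to 3′ on the minus strand of chromosome 10. Lyz1 lies at chr10:117292869-117293118 and Lyz2 at chr10:117282273-117282522. Capitals mark AAGGTCA, the core of the site that LRH-1 is known to bind.
Lyz1: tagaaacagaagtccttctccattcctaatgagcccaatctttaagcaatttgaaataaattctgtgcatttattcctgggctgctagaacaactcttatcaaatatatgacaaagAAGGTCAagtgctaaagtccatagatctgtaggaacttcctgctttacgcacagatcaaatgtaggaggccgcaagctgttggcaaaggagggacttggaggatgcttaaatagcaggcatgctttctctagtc
Lyz2: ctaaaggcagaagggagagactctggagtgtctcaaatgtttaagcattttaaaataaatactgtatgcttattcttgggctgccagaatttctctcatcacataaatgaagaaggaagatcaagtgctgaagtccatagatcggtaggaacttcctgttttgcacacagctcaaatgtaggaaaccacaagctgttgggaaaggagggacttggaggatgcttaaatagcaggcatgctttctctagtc

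In a global alignment the stretches were identical at 200 of 252 columns (79.4%), and without gaps at 92 of the last 100 bases before the start. The Lyz1 match begins 134 bases before the start. Within it the Lyz2 stretch differs by G120A, counted from 1 at the first base printed for Lyz1, so that Lyz2 has no match there. AAGGTCA was found, on either strand, in 4.72% of 32851 windows around all transcription starts (250 bases before to 50 after). The longer form CAAGGTCA, which contains it, occurred in 1.56% of the windows, and AAGGCCA and CAAGGCCA in 6.20% and 2.40%. None of these other forms was in the windows of Lyz1, Lyz2, Mmp7, Ang4 or Itln1. A match is a description of letters, not of binding, and the level of Lyz1 was given above. Lyz2 itself averaged 10.19 ± 0.16 in WT and 10.18 ± 0.17 in K289R (SD, n = 7 each, difference −0.014, SE 0.082, limma adjusted p = 0.972).

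Ang4 encodes a ribonuclease of the angiogenin family with antimicrobial activity, secreted by Paneth cells. Its level ran from 13.08 through 13.45 to 13.61 in WT and from 13.23 through 13.44 to 13.70 in K289R. WT replicate 3 and K289R replicate 5 were the lowest of their groups, WT replicate 5 and K289R replicate 2 the highest. The difference was 0.094 (SE 0.086), a fold of 1.07 with a 95% interval of 0.941 to 1.21 (limma adjusted p = 0.768, exact permutation p = 0.334), and 6 of 7 K289R arrays lay above the WT mean. Of the related genes listed for Ang4, 3 had a probe set of their own and 2 were tested: Ang6 differed by 0.032 and Rnase1 by −0.18, neither past the threshold.

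Pla2g2a encodes a secreted phospholipase A2 that kills Gram-positive bacteria. In the C57BL/6J reference the gene is annotated as a transcribed pseudogene, and inbred strains are known to differ in whether it is intact. Signal was nevertheless present on all arrays, from 9.27 through 9.88 to 10.15 in WT and from 9.41 through 10.15 to 10.36 in K289R. WT replicates 3, 4 and 7 were at 9.50 or lower, and K289R replicates 3 and 5 at 9.47 or lower, so that low arrays occurred in both genotypes. From a WT mean of 9.76 ± 0.35 to a K289R mean of 9.96 ± 0.38 (SD, n = 7 each) the difference was 0.20 (SE 0.171). This was the largest difference of the 6 genes, a fold of 1.15, but its 95% interval of 0.897 to 1.48 includes no change (limma adjusted p = 0.746, exact permutation p = 0.309). The 8 tested genes for other secreted phospholipases had differences between −0.070 (Pla2g2c) and 0.076 (Pla2g10), and 0 of them passed.

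Mmp7 encodes matrilysin, the protease that cuts mouse pro-alpha-defensins into their active form. Its brighter probe set ran from 11.29 through 11.89 to 12.07 in WT and from 11.43 through 11.76 to 12.15 in K289R. WT replicates 3, 4 and 7 and K289R replicate 5 were the 4 lowest arrays. The difference was 0.079 (SE 0.130), a fold of 1.06 with a 95% interval of 0.873 to 1.28 (limma adjusted p = 0.874, exact permutation p = 0.597). The dimmer probe set of Mmp7 went from 7.65 ± 0.23 (SD, n = 7) to 7.62 ± 0.22 (SD, n = 7), a difference of −0.030 (SE 0.108, exact permutation p = 0.806), and WT replicate 3 was again its lowest array. Both probe sets gave small differences, of opposite sign. Among 8 tested genes for other matrix metalloproteases 5 were higher and 3 lower, from −0.15 (Mmp28) to 0.19 (Mmp2), and 0 passed.

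Mmp7 is also known as a target of Wnt signalling, which acts through TCF factors that bind CTTTGAA or CTTTGAT. The stretch of 27 bases around the only such match among the promoter windows of the measured genes is shown, with the match in capitals as it reads on the plus strand (GRCm38.p6, chr9:7692084-7692110).
Mmp7: gtcaggaaacATCAAAGtagctctgag

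The match begins at the fifth base of the first annotated transcript, and 247 bases before the other annotated start of Mmp7. CTTTGAT was present on either strand in 3.73% of all windows and CTTTGAA in 5.14%. Promoter windows were matched for Lyz1, Mmp7, Ang4 and Itln1, not for Pla2g2a, Defa17 and Defa24.

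Itln1 encodes intelectin, a lectin that binds bacterial sugars and that is made by Paneth cells and also by goblet cells. It lies on chromosome 1, as Nr5a2 does, whereas the other genes are on chromosomes 4, 8, 9, 10 and 14. Its level ran from 12.15 through 12.66 to 12.80 in WT and from 12.12 through 12.70 to 12.88 in K289R. In each genotype 2 arrays stood below the rest, WT replicates 3 and 4 at 12.15 and 12.38 and K289R replicates 3 and 5 at 12.32 and 12.12. The difference of 0.036 (SE 0.121) is a fold of 1.03 with a 95% interval of 0.859 to 1.22 (limma adjusted p = 0.949, exact permutation p = 0.779). It became −0.035 without WT replicate 3 and −0.0086 without K289R replicate 2.

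Defa24 is an alpha-defensin (cryptdin), a small peptide with disulphide bridges that disrupts bacterial membranes. Alpha-defensin genes lie in a cluster of near-identical copies, so a probe set named for 1 of them may also report others. Defa24 ran from 13.70 through 13.81 to 13.85 in WT and from 13.75 through 13.79 to 13.83 in K289R. Here too WT replicate 3 and K289R replicate 5 were lowest, though the whole range of the 14 arrays was a fold of only 1.11. The difference was −0.017 (SE 0.040), a fold of 0.988 with a 95% interval of 0.933 to 1.05 (limma adjusted p = 0.921, exact permutation p = 0.478).

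The rest of the alpha-defensin family gave the same picture. Of 14 genes of the family with a probe set of their own, 11 passed the filter on dim genes, Defa24 among them, and Defa-ps12, Defa-ps13 and AY761185 did not. Among the 11 tested, 0 passed the adjusted threshold and 0 had an unadjusted p under 0.05, with 7 higher, 4 lower and a median of 0.015. Defa22 differed most upwards, from 13.95 ± 0.29 (SD, n = 7) to 14.09 ± 0.13 (SD, n = 7), a difference of 0.14 (SE 0.107, limma adjusted p = 0.718). Defa33 differed most downwards, from 11.41 ± 0.10 (SD, n = 7) to 11.28 ± 0.24 (SD, n = 7), a difference of −0.13 (SE 0.0898, limma adjusted p = 0.698). The differences of the others were 0.12 for Defa21, 0.076 for Defa41, 0.058 for Defa40, 0.057 for Defa35, 0.015 for Defa26, 0.0051 for Defa34, −0.0034 for Defa39 and −0.081 for Defa-ps1.

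**Figure D2:**
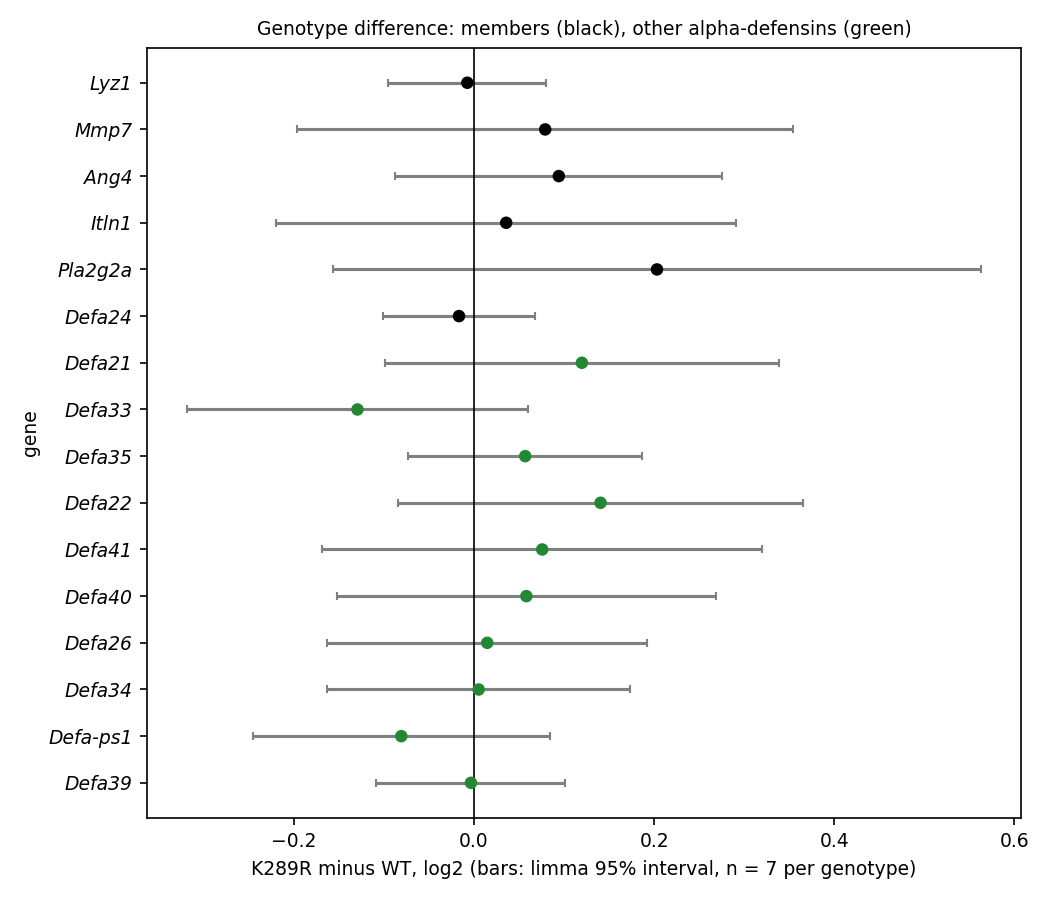
K289R minus WT (horizontal axis, log2) for the 6 measured Paneth cell genes (black) and the other 10 tested alpha-defensins (green), with limma's 95% intervals (bars, 7 arrays per genotype). Every interval includes 0, and the widest is that of Pla2g2a, at −0.16 to 0.56.

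For each of the 6 genes the difference between genotypes was smaller than the SD between mice of 1 genotype. Within genotype the SD of Pla2g2a was 0.37, at percentile 98.5 of all genes tested, and from the lowest to the highest of the 14 arrays the gene spanned a fold of 2.14. Mmp7 (SD 0.28, percentile 95.9, fold 1.81) and Itln1 (SD 0.26, percentile 94.7, fold 1.69) also varied more than most genes, and Ang4 (SD 0.17, percentile 79.6, fold 1.54) somewhat less so. The median within-genotype SD over all genes tested was 0.13. Lyz1 and Defa24 were at the other end, with SDs of 0.050 and 0.043, at percentiles 0.97 and 0.39. Both are among the 37 tested genes with the highest mean levels, whose median SD was 0.049. Bright alpha-defensins were not all so even, since Defa21 and Defa22, with means of 13.89 and 13.95 in WT, each had an SD of 0.22. Whether the scale is compressed for Lyz1 and Defa24 was not tested.

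**Figure D3:**
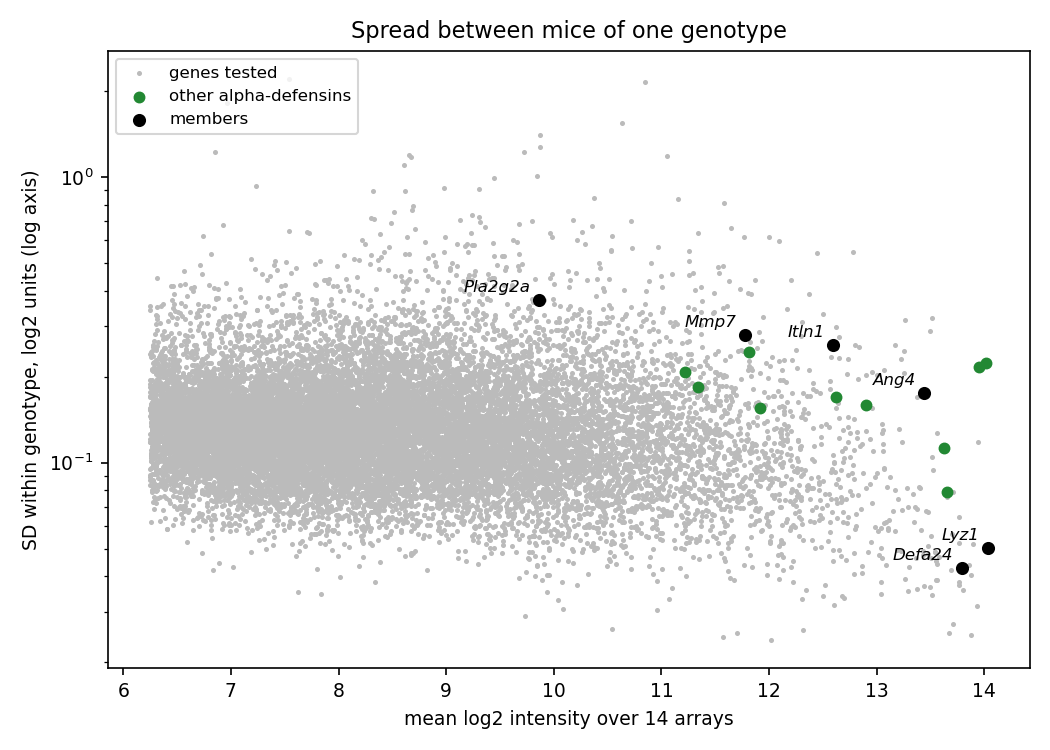
SD within genotype (vertical axis, log2 units on a log axis) against mean log2 intensity over 14 arrays (horizontal axis) for each gene tested (grey), the measured Paneth cell genes (black) and the other alpha-defensins (green). Pla2g2a, Mmp7 and Itln1 lie in the upper part of the cloud and Lyz1 and Defa24 at its bright, narrow end.

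The genes varied together from mouse to mouse. After centring on each genotype's mean, the 15 pairs among the 6 genes had Pearson correlations of 0.77 (Lyz1 with Mmp7) to 0.91 (Mmp7 with Ang4), with a median of 0.86, and Spearman correlations of 0.61 to 0.89, over 14 arrays. Within WT alone the lowest pair was at 0.83 and within K289R alone at 0.57. These are descriptions, and the values of an array share 1 RNA sample and 1 hybridisation. WT replicate 3 was the lowest WT array for 6 of the 6 genes. K289R replicate 5 was the lowest K289R array for 5 of them, and for Lyz1 this was K289R replicate 3. On 5 arrays all 6 genes were below their own median over the 14 arrays, 3 of them WT (replicates 3, 4 and 7) and 2 of them K289R (replicates 3 and 5). The mean z-score over the 6 genes ran from −1.92 on WT replicate 3 to 0.85 on WT replicate 5 in WT, and from −1.24 on K289R replicate 5 to 0.96 on K289R replicate 2 in K289R. Of the other 10 tested alpha-defensins, WT replicate 3 was the lowest WT array for 8 and WT replicate 4 for 2, and K289R replicates 3 and 5 were the lowest K289R arrays for 5 each.

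**Figure D4:**
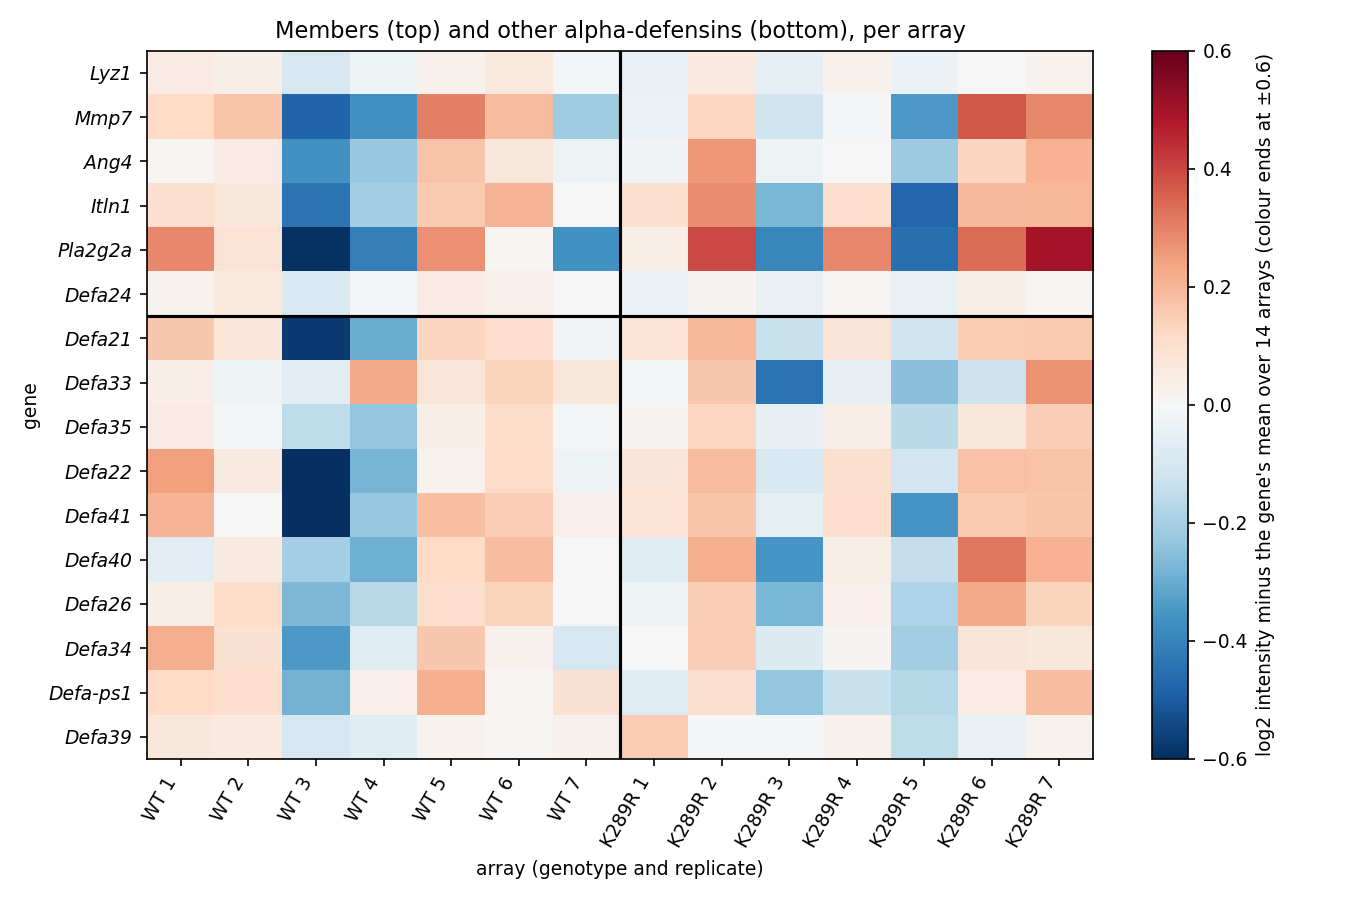
Log2 intensity minus each gene's mean over 14 arrays (colour, red above and blue below, ending at ±0.6) for the 6 measured Paneth cell genes and the other 10 alpha-defensins (rows) on each array (columns, WT left and K289R right). Columns WT 3, WT 4, K289R 3 and K289R 5 are mostly blue in both blocks of rows, with exceptions such as Defa33 on WT 4, and columns K289R 2 and K289R 7 mostly red.

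The genes whose pattern was most alike were sought by Pearson correlation with the mean z-score of the 6 genes, centred by genotype, over 14 arrays and all 18010 genes tested. Habp2, a serine protease gene of the granule and marker list described next, stood first with 0.99, above each of the 6 genes themselves, which are part of the score. Its own level ran from 9.17 through 10.003 to 10.24 in WT and from 9.41 through 9.996 to 10.30 in K289R. The next outside the alpha-defensins were 1700025G04Rik and Samd5 (0.94 and 0.93), Hpd, an enzyme of tyrosine breakdown (0.93), Prox1, a homeobox gene whose product is a known corepressor of LRH-1 (0.93), the ribosomal protein gene Rpl29 (0.93), the tetraspanin gene Cd9 (0.93), Fhl1 (0.93), Clps, the gene of colipase (0.93), and Myadm (0.93). For 9 of these 10 genes WT replicate 3 was the lowest WT array, and for 9 of them K289R replicate 5 was the lowest K289R array. None of the 10 passed the threshold between genotypes, with differences from −0.097 (Rpl29) to 0.20 (Cd9 and Fhl1). The dimmer probe sets of Rpl29 and Cd9 differed by −0.15 (SE 0.098) and 0.073 (SE 0.056). In all, 206 genes (1.14%), the 6 genes included, had a correlation above 0.8, among them 9 of 11 tested alpha-defensins, Defa24 included, and 10 of 55 tested genes of the other Paneth cell lists.

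Those other lists cover granule and marker genes, regulators of Paneth cell fate, secretion with autophagy and microbial sensing, and niche signals. Together they held 58 genes, of which 55 were tested and 0 passed, 26 being higher and 29 lower with a median of −0.0056, and 3 of 55 had an unadjusted p under 0.05, where 8.48% of all genes did. The granule and marker list had 10 of 18 tested genes higher, with the smallest p for the lectin gene Reg4 (−0.24, SE 0.116), Reg3a (−0.20, SE 0.096) and Sntb1 (0.22, SE 0.110). The limma adjusted p values of these were 0.593 to 0.604. Reg4 and Reg3a did not follow the Paneth cell genes from mouse to mouse (0.17 and 0.08), whereas Sntb1 did (0.87). Singled out after their values were seen, Nupr1 (0.88), Pnliprp2 (0.90), Ccl6 (0.89), Spink4 (0.91) and Mptx2 (0.82) also followed them, and their genotype differences were 0.21, 0.033, 0.022, 0.044 and 0.18. The mean of the granule and marker list correlated with the Paneth cell genes at 0.97, with 10 of 18 genes above 0.5. Of the 18 genes 0 were below −0.5, and the lowest was Rnase1 at −0.27.

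Among regulators of Paneth cell fate, 7 of 14 tested genes were higher and 7 lower. The smallest p values were those of the Wnt receptor gene Fzd5 (−0.15, SE 0.074), the growth factor receptor gene Fgfr3 (−0.13, SE 0.086) and Gfi1, a transcription factor of the secretory lineage (0.076, SE 0.057), with limma adjusted p values of 0.604, 0.679 and 0.716. The mean of the list correlated with the Paneth cell genes at 0.59, with 5 of its 14 genes above 0.5 and 0 below −0.5. Singled out after their values were seen, Sox9 (0.83, genotype difference −0.11, SE 0.116) and the crypt-sorting receptor gene Ephb3 (0.80) lay at the upper end, and Stat5a (−0.43) and the receptor gene Erbb3 (−0.30) at the lower end. In the secretion list 8 of 14 tested genes were higher, and the smallest p values were those of the kinase gene Lrrk2 (0.19, SE 0.080), the DNA sensor gene Tlr9 (0.12, SE 0.067) and the vesicle gene Rab2a (0.091, SE 0.053), with limma adjusted p values of 0.515 to 0.641. The secretion list mean correlated with the Paneth cell genes at 0.35, with 3 of 14 genes above 0.5 and 1 below −0.5.

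Niche signals were lower in 8 of 9 cases, with a median of −0.084, where 9367 of all 18010 genes were lower with a median of −0.0039. None of the 9 passed, and 2 of them had an unadjusted p under 0.05, against 8.48% of all genes. Dll1, a ligand of Notch, went from 9.24 ± 0.14 (SD, n = 7) to 9.02 ± 0.09 (SD, n = 7), a difference of −0.21 (SE 0.064, limma adjusted p = 0.381). Its dimmer probe set differed by −0.023 (SE 0.074). Dll4, another Notch ligand, differed by −0.14 (SE 0.061, limma adjusted p = 0.532) and the growth factor gene Tgfa by −0.17 (SE 0.086, limma adjusted p = 0.604). Wnt3, the Wnt ligand of Paneth cells and the only niche gene that was higher, differed by 0.074 (SE 0.108). From mouse to mouse the niche list as a whole correlated with the Paneth cell genes at 0.15, with 2 of 9 genes above 0.5 and 3 below −0.5. The list correlation was −0.48 within WT, 0.38 within K289R, and 0.45 without WT replicate 3 and K289R replicate 5. Wnt3 was at 0.81, and Bst1, Dll1 and the Wnt ligand gene Wnt11 ran the other way at −0.74, −0.57 and −0.52. Of these Wnt3, Bst1 and Wnt11 were picked out by their values.

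Marker lists of other cells moved with the shared variation of the Paneth cell genes, to different degrees. The mean of the 12 enterocyte genes ran against it (Pearson −0.86, Spearman −0.85, 14 arrays, and −0.77 without the arrays with the most extreme scores, WT replicate 3 and K289R replicate 5), with list means of 12.95 to 13.29 in WT and 12.99 to 13.27 in K289R. Of its genes 7 were below −0.5, among them Treh, trehalase, at −0.83 and, singled out after its values were seen, Mttp, of lipoprotein assembly, at −0.86. The mean of the 10 crypt stem cell genes ran with it (Pearson 0.80, Spearman 0.82, and 0.79 without the same arrays), with list means of 9.51 to 9.68 in WT and 9.27 to 9.71 in K289R. Of its genes 6 were above 0.5 and 1 below −0.5, and the extremes, singled out after their values were seen, were Lgr5, the stem cell receptor gene, at 0.89 and the Wnt target gene Sp5 at −0.52. Proliferation genes were at 0.31 and at −0.21 without the same arrays. Goblet cell genes were at 0.67 as a list, with means of 11.76 to 12.10 in WT and 11.75 to 12.09 in K289R. Of these 11 genes 5 were above 0.5, among them Spink4, which the granule and marker list also holds, and 0 below −0.5, while Tff3, a goblet cell peptide gene singled out after its values were seen, was at −0.42. Genes of macrophages and neutrophils were at 0.70 as a list (8.08 to 8.41 in both genotypes), with 5 of 9 above 0.5 and 0 below −0.5. Lyz2 was at 0.67 (0.51 within WT, 0.86 within K289R). The neutrophil genes Mpo, S100a9 and Elane, singled out after their values were seen, were at 0.16, 0.01 and −0.48. Pancreatic acinar genes (0.13, 6 genes) and smooth muscle genes (0.13, 12 genes) did so little over all arrays, though smooth muscle was at 0.54 without WT replicate 3 and K289R replicate 5. The part of tissue composition in the variation of the Paneth cell genes was not tested.

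**Figure D5:**
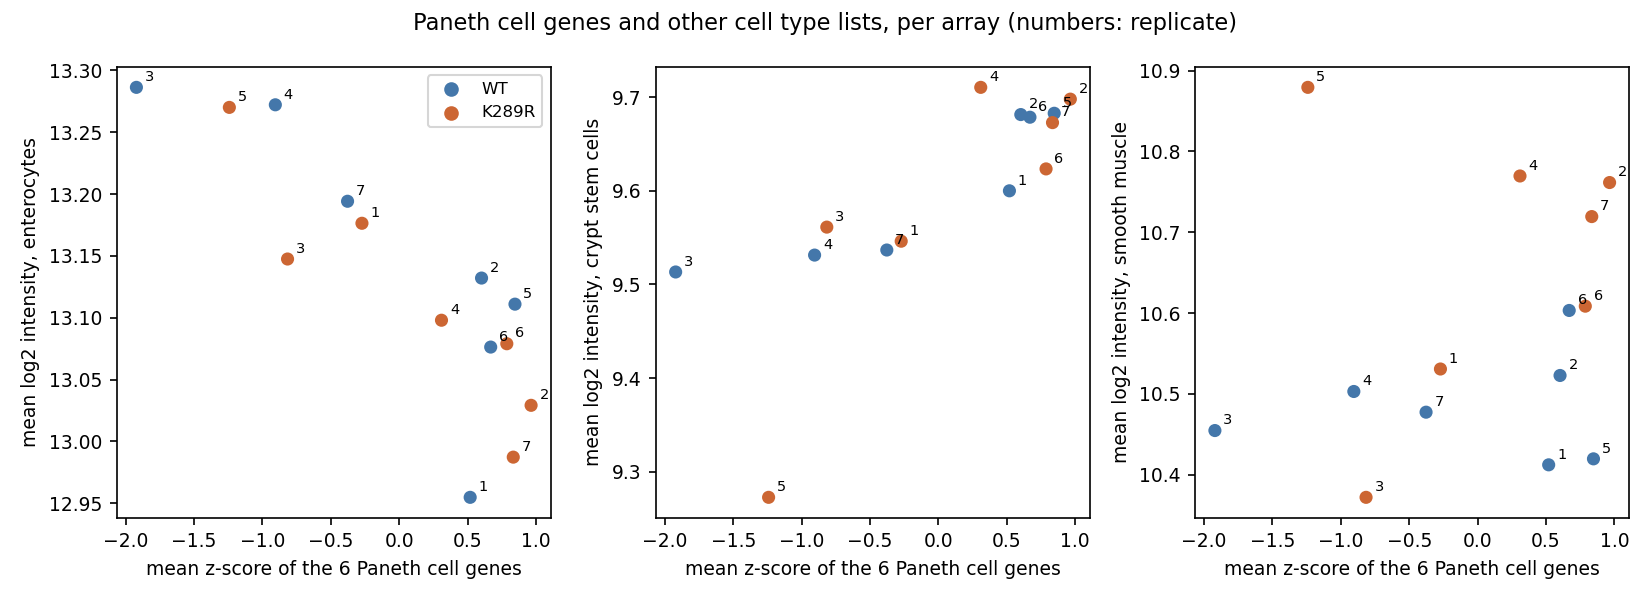
Mean log2 intensity of the enterocyte, crypt stem cell and smooth muscle marker lists (vertical axes) against the mean z-score of the 6 measured Paneth cell genes (horizontal axes), 1 point per array with its replicate number, WT in blue and K289R in orange. Enterocyte means fall from 13.29 on WT replicate 3 as the score rises, stem cell means rise, with K289R replicate 5 lowest at 9.27, and smooth muscle shows little trend over the 14 arrays.

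Between genotypes the smooth muscle list had a median difference of 0.21, with list means of 10.41 to 10.60 in WT and 10.37 to 10.88 in K289R. Of its 12 genes 10 were higher and 0 passed, and 7 had a limma unadjusted p under 0.05, against 8.48% of all genes. With its mean as a covariate the differences of the Paneth cell genes lay between −0.034 (Lyz1) and 0.14 (Pla2g2a), and 0 of 6 passed. This covariate itself differed between the genotypes, so the fit was less precise. The SE of Pla2g2a was 0.218, against 0.171 without the covariate. Genes of the distal small intestine, Fabp6 among them, correlated with the Paneth cell genes at 0.60 as a list (7 genes). The list correlation was 0.49 within WT and 0.74 within K289R. Its mean is unscaled and so weighs most on Fabp6, whose within-genotype SD was 2.20 and whose own correlation was 0.51. Of the 7 genes 4 were above 0.5 and 0 below −0.5, and the lowest was Cyp27a1 at −0.39. The arrays with Fabp6 signal had the higher median for each of the 6 Paneth cell genes. Lyz1 was at 14.05 to 14.10 on the 4 arrays with Fabp6 signal and at 13.93 to 14.07 on the other 10, Pla2g2a at 9.88 to 10.36 and 9.27 to 10.20, and Itln1 at 12.69 to 12.88 and 12.12 to 12.79. The ranges overlapped for each of the 6 genes. With 2 such arrays in each genotype, leaving them out, which was decided on with the data in hand, gave differences from −0.018 (Defa24) to 0.17 (Pla2g2a), and 0 of 6 passed (smallest limma adjusted p = 0.816).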

How the data were processed

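RNA from the jejunum of 14 mice was measured on Affymetrix whole-transcript arrays. The deposited table holds the intensity of 41345 probe sets per array on a linear scale, from 7.40 to 20050.3. The submitters' processing notes name Affymetrix Expression Console as the tool, and neither its version nor the summarisation or normalization chosen in it is given in the sources used here. Array medians were 168 to 174, so values were log2-transformed without further normalization. Whether the values hold a global shift or compressed dim genes was not tested. Probe sets were named from the platform annotation: 23521 had 1 symbol, 1814 several (left out) and 16010 none. A gene was its probe set with the highest mean, and 4170 genes with a mean log2 under 6.25, the 25th percentile over the whole table, were left out, so 18010 were tested. Genotypes were compared with limma 3.58.1 in R 4.3.3 (2-sided, no covariate, Benjamini-Hochberg over all genes tested, threshold 0.05), and single members by exact permutation, whose smallest possible p is 0.000583. The steps were first tested on simulated data.

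Members and lists were chosen with earlier results of these data known. Named are the members, the alpha-defensins, the relatives listed for the members, Fabp6, up to 3 genes of each other list with the smallest p, and the 10 most alike genes. Others are said to be singled out. Arrays of the same replicate number were little alike across the genotypes (correlation of deviations between −0.12 and 0.11). Whether equal numbers share a cage, litter or processing day was not tested. The smallest root mean square log2 difference between any pair of arrays was 0.24, so none was a duplicate. The labels give 5 mice per cage but do not say which mice shared a cage. They name no litter or scan batch. Promoters were aligned with Biopython 1.88. Alternatives were other normalizations, filters, probe set rules, eBayes options, array weights, a replicate block, a smooth muscle covariate, a constant of 16 added before log2, and leaving out arrays.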

Additional observations from a re-analysis of the deposited data

Results flagged for a closer look

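In 6 of 78 groups of 7 arrays (39 named genes in both genotypes) 1 array stood far from the others, where chance gives about 1 in 20 groups. None of the 6 measured Paneth cell genes was among them. Among the alpha-defensins, Defa-ps1 was low on WT replicate 3 (11.63, the next WT array at 11.93) and Defa41 on K289R replicate 5 (11.46, next 11.76), the same arrays that were low for the members. On K289R replicate 3, Fzd5 was low (9.99, next 10.29), Tgfa was low (7.94, next 8.32) and Rab2a high (12.35, next 12.09). Tlr9 was high on K289R replicate 2 (8.15, next 8.03).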

How the results depend on the processing

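Under 26 alternatives 0 of the 6 members, 0 alpha-defensins and 0 genes of the other Paneth cell lists passed limma's threshold, with smallest adjusted p values of 0.408, 0.329 and 0.187. Mmp7, Ang4, Pla2g2a and Defa24 kept their direction in all 26, but their sizes moved by over 1.5 times with single arrays. Other filters, eBayes options or the replicate block leave the estimate itself unchanged, so the direction could not turn in those fits. For Mmp7 the direction is that of the brighter probe set or of the mean of both. The dimmer probe set alone differed by −0.030. With 1 array left out Mmp7 ran from 0.0052 to 0.14, Ang4 from 0.041 to 0.14 and Pla2g2a from 0.12 to 0.30, each lowest without WT replicate 3 and highest without K289R replicate 5, and Defa24 ran from −0.033 (without WT replicate 3) to −0.0075 (without WT replicate 2). Lyz1 turned to 0.0025 with quantile normalization and 0.0028 with array weights, and ran from −0.025 to 0.0027 when 1 array was left out. Itln1 ran from −0.035 to 0.12 in those fits, turning without WT replicate 3 or K289R replicate 2. With the replicate number as a block 0 members, 0 alpha-defensins and 0 genes of the other lists passed, and 0 of all genes against 8 without it. Over all genes 14 passed with array weights, 5 without the Fabp6 arrays and 4 to 14 with 1 array left out. The number of arrays limits the precision, and compression of Lyz1 and Defa24 near the top of the scale was not tested.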
